A study of Mus musculus with 3 samples.

Results

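The amyloid precursor family and its secretases were examined as a set of 9 genes, chosen by gene symbol, in RNA-seq of whole hippocampus taken on postnatal day 14 from C57BL/6 mice of wild-type genotype. All 9 genes were found among the 39377 genes of the deposited expression table, of which 19046 were above 0 in at least 1 library. The samples formed 1 group of 3 total RNA libraries of mixed cell types, called libraries 1, 2 and 3, and no other genotype, age or treatment was measured, so the comparisons were between genes within the same libraries. The title of the series names Slc22a17, postnatal neurogenesis and iron, and the 9 genes were not singled out by it. Whether the libraries represent separate animals is not stated in the labels, so errors and p-values cover only how far these samples varied, and that variation may be technical. Levels are FPKM as the authors deposited them, that is, fragments scaled to a kilobase of transcript and to 1000000 mapped fragments. A value after ± is the SD across n = 3 libraries.

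The amyloid precursor protein App and its relatives Aplp1 and Aplp2 are transmembrane proteins of neurons and other cells, with roles in adhesion, axon growth and synapse formation. App is cut outside the membrane either by alpha-secretases of the ADAM family or by the beta-secretase Bace1, and the remaining stub is cut inside the membrane by gamma-secretase. Gamma-secretase is a complex of a presenilin (the catalytic subunit), nicastrin, an APH-1 protein and the presenilin enhancer Psenen, and it also cuts many other membrane stubs, among them those of Notch receptors. Cutting by Bace1 and then gamma-secretase releases the amyloid-beta peptide, which aggregates in Alzheimer's disease.

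Depth, estimated from the steps between low values, was about 3690000, 4090000 and 5890000 fragments in libraries 1, 2 and 3. Neuronal markers were abundant, with a summed level of 1598, 1479 and 1459 FPKM over the 5 genes Rbfox3, Snap25, Syt1, Slc17a7 and Gad1. Prox1, Neurod2 and Zbtb20, genes of hippocampal neurons, were all detected and summed to 59.6, 45.8 and 45.7 FPKM. The choroid plexus genes Ttr, Folr1 and Kl summed to 396, 1080 and 1306 FPKM, nearly all of it Ttr, so choroid plexus RNA differed between libraries. Astrocyte genes (Aqp4, Gja1, Aldh1l1) summed to 240 to 253 FPKM, oligodendrocyte precursor genes (Pdgfra, Cspg4) to 21.6 to 28.8 FPKM, microglial genes (Cx3cr1, P2ry12, Csf1r) to 65.1 to 69.9 FPKM, endothelial genes (Cldn5, Pecam1) to 59.3 to 62.1 FPKM and red cell genes (Hbb-bs, Hba-a1) to 607 to 765 FPKM. In whole tissue, fewer cells of a type and less RNA per cell cannot be told apart.

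The 3 precursor genes had the highest means of the set, although in the values as deposited the lowest of them, Aplp2, lay close to the gamma-secretase subunit gene Psenen. Aplp1, which encodes the amyloid precursor-like protein found mainly in neurons, was at 406, 372 and 395 FPKM in libraries 1, 2 and 3, and App at 404, 275 and 333 FPKM. Library 1 held the highest value and library 2 the lowest for both genes, and their ranges overlapped. Aplp2, the more widely expressed relative, was at 136, 130 and 153 FPKM, below every value of App and Aplp1. Mean levels were 391 ± 17.6 FPKM for Aplp1, 337 ± 64.2 FPKM for App and 140 ± 11.7 FPKM for Aplp2. These means ranked 276, 313 and 727 among the 19046 genes above 0.

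**Figure D1:**
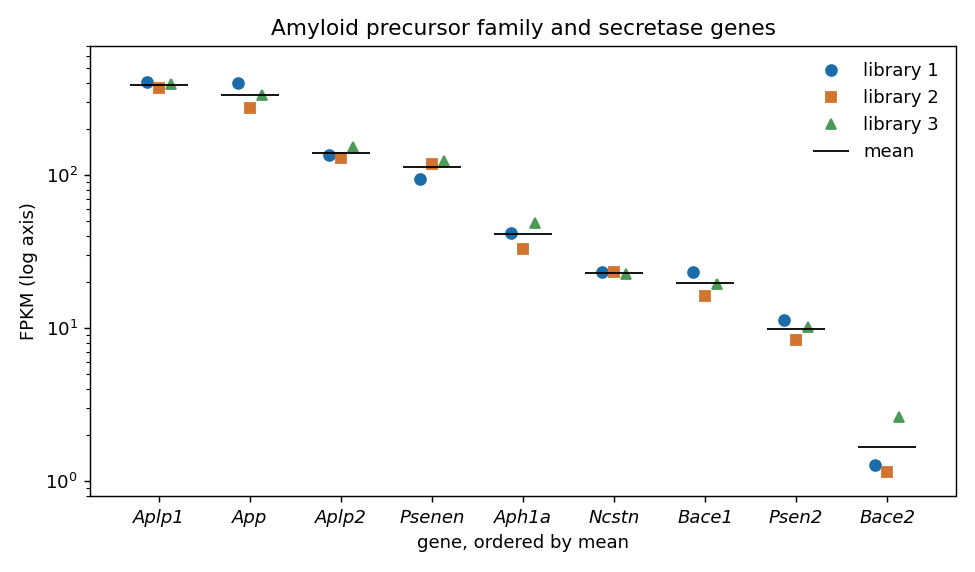
FPKM of the 9 genes on a log axis, ordered by mean, with 1 point per library and a bar at the mean. The precursor genes lie between 372 and 406 FPKM for Aplp1 and between 275 and 404 FPKM for App, and Bace2 lies between 1.15 and 2.63 FPKM, with the gamma-secretase subunit genes in between.

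Together the 3 precursor genes summed to 868 ± 85.2 FPKM. Aplp1 made up 45.2% ± 2.47 of that sum, App 38.6% ± 3.68 and Aplp2 16.1% ± 1.55. The share of App was 42.7%, 35.4% and 37.8% in libraries 1, 2 and 3. The sum rested mainly on App and Aplp1 in every library, and App did not exceed Aplp1 in any of them, although in library 1 they were nearly level (App over Aplp1, 0.993).

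In GRCm38, App occupies chromosome 16 between 84949685 and 85173766 on the minus strand, a span of 224082 bases with a principal transcript of 16 exons. Aplp1 lies on the minus strand of chromosome 7 (30434982 to 30445535) in a span of only 10554 bases with 17 exons, and Aplp2 on the minus strand of chromosome 9 (31149557 to 31211815), also with 17 exons. The 250 bases before the RefSeq start of each of these 3 genes, in GRCm38.p6, are shown because they belong to the genes that dominate the set. They are given 5′ to 3′ on the minus strand, with the GC box GGGCGG and its complement CCGCCC, the motif bound by Sp1-type factors, in capitals.
App, chr16:85173708-85173957: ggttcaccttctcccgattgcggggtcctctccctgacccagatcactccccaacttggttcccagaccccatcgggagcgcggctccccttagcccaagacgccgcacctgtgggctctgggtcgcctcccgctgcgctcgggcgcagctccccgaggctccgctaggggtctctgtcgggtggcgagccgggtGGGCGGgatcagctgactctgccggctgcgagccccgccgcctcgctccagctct
Aplp1, chr7:30445583-30445832: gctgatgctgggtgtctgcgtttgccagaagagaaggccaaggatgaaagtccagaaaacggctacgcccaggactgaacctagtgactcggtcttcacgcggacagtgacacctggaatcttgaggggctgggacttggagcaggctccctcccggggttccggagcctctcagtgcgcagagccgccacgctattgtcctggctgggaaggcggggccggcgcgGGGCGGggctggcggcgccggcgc
Aplp2, chr9:31211849-31212098: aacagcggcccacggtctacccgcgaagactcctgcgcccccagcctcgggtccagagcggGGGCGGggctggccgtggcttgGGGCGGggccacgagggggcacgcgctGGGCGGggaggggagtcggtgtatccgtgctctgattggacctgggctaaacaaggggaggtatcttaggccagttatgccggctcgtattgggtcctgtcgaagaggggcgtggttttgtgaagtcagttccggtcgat

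All 3 windows were rich in G and C and in CpG dinucleotides. GC content was 70.8% for App, 66.0% for Aplp1 and 66.4% for Aplp2, against a median of 52.4% over 32851 RefSeq windows of the same length. The windows held 23, 20 and 22 CpG, against a median of 6. Each held at least 1 GC box on either strand, with 1 in App, 1 in Aplp1 and 3 in Aplp2, a motif that was present in 32.7% of all windows. RefSeq windows were matched for 7 of the 9 genes (9 windows, since Psen2 and Psenen have 2 starts each), and 5 of these 9 windows held a GC box. The TATA box TATAAA was in 0 of the 9 windows and in 12.4% of all windows, the CCAAT box CCAAT in 3 of 9 and in 33.8%, and the E-box CACGTG in 1 of 9 and in 6.0%, each searched on both strands and with no overlap between these motifs and the GC box. These are matches of letters and not measured binding sites.

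Each gene was set against App by its difference in log2(FPKM + 1) within every library. The test asked whether a difference exceeded 2-fold, because length, base composition and mappability also set apart the FPKM of different genes. Of the 8 other genes, 6 were lower than App by more than 2-fold (limma, Benjamini-Hochberg adjusted p under 0.05), and 0 were higher. The same call was made for 94.0% of all 13336 genes tested, and 0.667% were called higher, so a count of 6 of 8 lower genes does not set the secretases apart. Beside 89 genes called higher over the whole table, App was among the most abundant transcripts of the tissue. The median difference from App was -3.40 log2 units over the 8 genes and -4.89 over all genes.

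Aplp1 was not shown to differ from App, at a ratio of 1.01, 1.35 and 1.19 in libraries 1, 2 and 3. The difference was 0.23 log2 units (SE 0.252, limma adjusted p = 1 for exceeding 2-fold), with Aplp1 higher in 3 of 3 libraries. Under a test of no difference, limma adjusted p was 0.367 with App subtracted. Aplp2 was at 0.337, 0.472 and 0.458 times App, a difference of -1.25 log2 units (SE 0.252) that was not shown to exceed 2-fold (limma adjusted p = 0.165; lower in 3 of 3 libraries). It did differ from App under a test of no difference at all (limma adjusted p = 7.02e-07 with App subtracted and 8.78e-05 with Aplp2 subtracted). Psenen, the smallest gamma-secretase subunit, was called lower than App by -1.57 log2 units (limma adjusted p = 0.0129; lower in 3 of 3 libraries). That call was lost without replicate 1, at -1.31 log2 units (limma adjusted p = 0.135).

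The remaining genes lay further below App. Aph1a was lower by -3.00 log2 units, Ncstn by -3.79, Bace1 by -4.03, Psen2 by -4.94 and Bace2 by -7.00, each lower in 3 of 3 libraries and with an SE of 0.252. The equal SE arises because the spread of App itself enters every difference, and the test then treats that spread as known. With the spread estimated for each gene from its own values, limma adjusted p was 8.23e-05 for Aph1a, 1.04e-05 for Ncstn, 1.34e-05 for Bace1, 4.90e-06 for Psen2 and 3.71e-06 for Bace2, and the 8 calls were the same. The 1 added to FPKM narrows the differences of low genes. With 0.1 added in its place, Bace2 differed by -7.64 log2 units from App, -3.55 from Bace1 and -2.57 from Psen2.

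**Figure D2:**
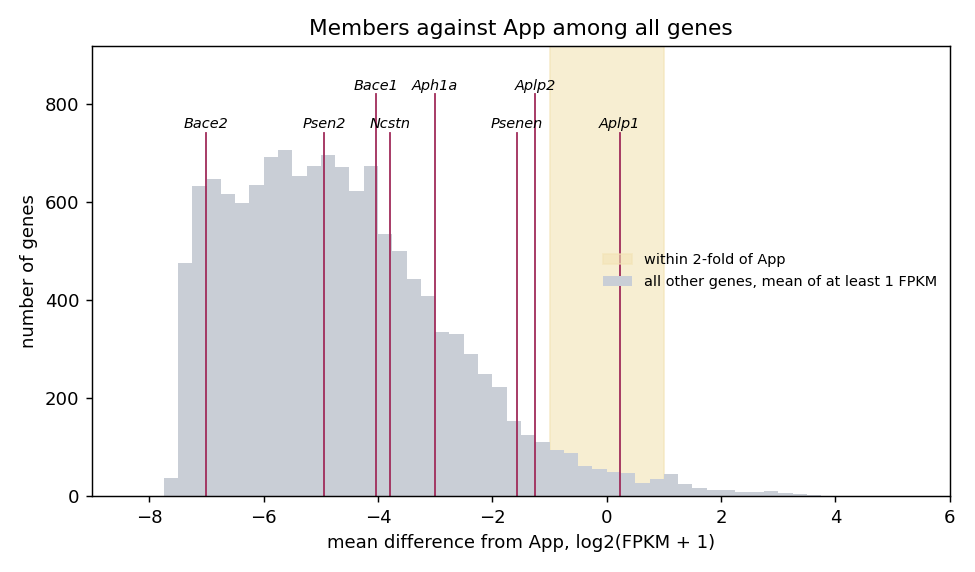
Number of genes (vertical axis) by mean difference from App in log2(FPKM + 1) (horizontal axis), in bins of 0.25, with a line at each of the 8 other members and a band marking 2-fold. Only Aplp1 lies inside the band, and Bace2, at -7.00, lies near the low end of all genes tested.

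Between the beta-secretase genes, Bace1, the main brain enzyme, was at 23.3, 16.3 and 19.5 FPKM and Bace2, its relative best known from tissues outside the brain, at 1.28, 1.15 and 2.63 FPKM. Every Bace1 value exceeded every Bace2 value. Bace2 was at 0.0549, 0.0706 and 0.135 times Bace1 in libraries 1, 2 and 3, with the highest ratio in library 3. The difference, Bace2 minus Bace1, was -2.97 log2 units (SE 0.242; limma adjusted p = 1.43e-15, or 7.78e-04 with the spread estimated per gene; lower in 3 of 3 libraries). Of all genes, 37.8% were likewise called lower than Bace1. Bace1 made up 92.1% ± 3.54 of the summed FPKM of the pair.

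Bace2 rested on few fragments, about 35, 35 and 115 for its principal transcript of 7646 bases, for a counting error of 9.34% to 17.0%. Its coefficient of variation was 48.6%, and it fell to 7.57% without library 3. Bace1 lies on the plus strand of chromosome 9 (45838580 to 45864399), with 9 exons in a principal transcript of 6058 bases, and Bace2 on the plus strand of chromosome 16 (97356742 to 97442936), also with 9 exons. Exons of Rnf214, on the opposite strand, overlap those of Bace1. Rnf214 was at 19.26, 13.18 and 12.03 FPKM, and whether counting used strand is not given in the sources used here, so part of the reads of either gene could belong to the other.

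The alpha-secretases, which compete with Bace1 for App, were of similar level. Adam10, the main alpha-secretase of neurons, was at 17.9, 17.5 and 17.5 FPKM, and Adam9 at 24.7, 21.2 and 19.0 FPKM. Both overlapped with the range of Bace1. Adam17, best known for releasing tumour necrosis factor, was lower, at 6.95, 5.51 and 4.61 FPKM. Against Bace1, 1 of these 3 genes was lower by more than 2-fold and 0 were higher, where 37.8% of all genes were lower and 13.8% higher, so the count is near the background. That gene, Adam17, differed by -1.63 log2 units (SE 0.242; limma adjusted p = 0.00991; lower in 3 of 3 libraries). The call was lost without replicate 3, at -1.51 log2 units (limma adjusted p = 0.138). The ratio to Bace1 was 0.913 ± 0.154 for Adam10 and 1.11 ± 0.169 for Adam9.

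The gamma-secretase subunit genes differed widely although their products form a complex. Psenen, needed for the cleavage that activates presenilin, was the highest at 95.0, 118 and 125 FPKM. Library 1 held its lowest value, unlike App, Aplp1 and Bace1, which were highest there. Aph1a, a scaffold subunit, was at 42.0, 33.2 and 48.5 FPKM, lowest in library 2. Ncstn, which encodes nicastrin, the subunit proposed to gate entry of substrates, was at 23.4, 23.2 and 22.7 FPKM, almost level between libraries. Psen2, which encodes a presenilin, was the lowest at 11.3, 8.44 and 10.2 FPKM, again lowest in library 2. None of the ranges of these 4 genes overlapped.

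Ncstn was taken as the common denominator. Psenen was 4.87 ± 0.735 times Ncstn, Aph1a 1.79 ± 0.351 times and Psen2 0.430 ± 0.0600 times. Of these 3, 1 differed from Ncstn by more than 2-fold, Psenen, at 2.22 log2 units above it (SE 0.118) in 3 of 3 libraries (limma adjusted p = 2.50e-04). Among all genes, 13.6% were called higher than Ncstn and 45.7% lower. Aph1a, at 0.79 log2 units and above Ncstn in 3 of 3 libraries (SE 0.133; limma adjusted p = 1), and Psen2, at -1.15 log2 units (SE 0.109; limma adjusted p = 0.184; lower in 3 of 3 libraries), were not shown to differ by more than 2-fold. Both differed from Ncstn under a test of no difference (limma adjusted p = 0.00256 and 2.34e-04). Under that test, 8743 of all 13336 genes were called lower than Ncstn and 3286 higher.

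The level of Psenen depends on how its short transcript is counted. Its principal transcript has 708 bases, against 2901 for Ncstn, 2863 for Aph1a and 2020 for Psen2, and the deposited values behaved as if 220 to 280 bases had been taken off each transcript length. Rescaled to whole transcript lengths, Psenen was 3.48 times Ncstn, Aph1a 1.78 times and Psen2 0.412 times. Psenen was then 0.567 times Aplp2 and 0.247 times App, against 0.807 and 0.346 as deposited. Psenen overlaps exons of U2af1l4, a splicing factor gene on the opposite strand at 58.4, 63.8 and 52.9 FPKM, so reads of the pair cannot be told apart unless strand was used. Ncstn likewise overlaps exons of Copa (39.4, 37.1 and 38.6 FPKM) and Aph1a those of Car14 (1.34, 1.78 and 1.31 FPKM).

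Aph1a was compared with the other APH-1 genes. Aph1b was at 8.98, 11.2 and 8.80 FPKM and Aph1c at 0.68, 1.43 and 1.08 FPKM. Both were lower than Aph1a, Aph1b by -1.98 log2 units (limma adjusted p = 1.08e-04) and Aph1c by -4.36 log2 units (limma adjusted p = 8.80e-39, or 1.10e-04 with the spread per gene), in 3 of 3 libraries each; 58.6% of all genes were lower than Aph1a. Aph1b and Aph1c are closely related in mouse, so their values are uncertain where reads are shared. Against Ncstn, 1 of these 2 genes was called lower, Aph1c, at 0.046 ± 0.0163 times, where 45.7% of all genes were lower.

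**Figure D3:**
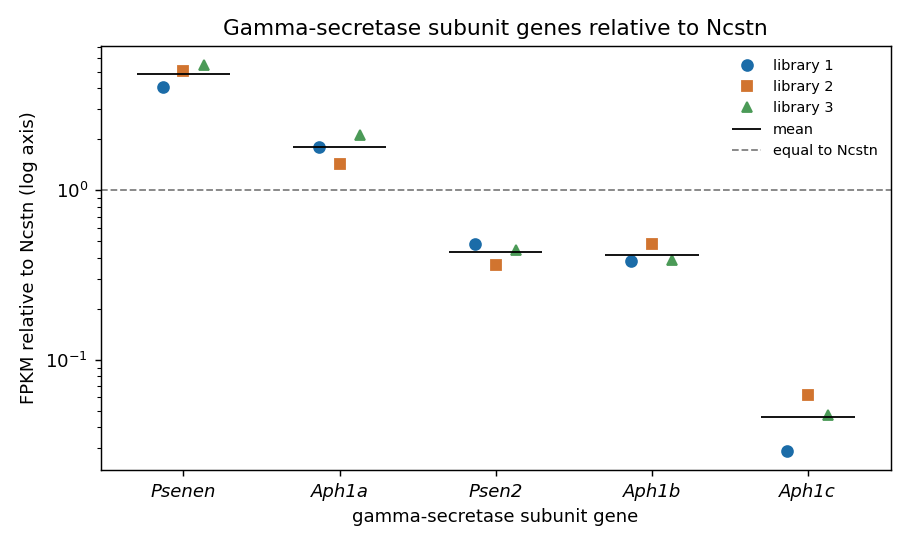
FPKM of the gamma-secretase subunit genes divided by FPKM of Ncstn in the same library, on a log axis, with 1 point per library, a bar at the mean and a dashed line at equality. Psenen (4.05 to 5.47) and Aph1a (1.43 to 2.13) lie above Ncstn in every library, and Psen2, Aph1b and Aph1c lie below it.

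Psenen occupies chromosome 7 between 30561863 and 30563627 on the minus strand, 116 kb from Aplp1, and these were the closest of the 4 pairs of members on a shared chromosome. Their library patterns differed, with the lowest value of Psenen in library 1 and that of Aplp1 in library 2. Ncstn (172066013 to 172082795) and Psen2 (180227004 to 180263438) share the minus strand of chromosome 1, and Aph1a lies on the plus strand of chromosome 3 (95893969 to 95898288).

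Ordered by mean, the genes ran Aplp1, App, Aplp2, Psenen, Aph1a, Ncstn, Bace1, Psen2 and Bace2. Of the 8 neighbouring pairs, 2 differed by more than 2-fold. Aph1a was lower than Psenen by -1.43 log2 units (SE 0.197; limma adjusted p = 0.0198; lower in 3 of 3 libraries), as were 82.7% of all genes. Bace2 was lower than Psen2 by -2.06 log2 units (SE 0.188; limma adjusted p = 9.91e-05; lower in 3 of 3 libraries), as were 20.6% of all genes. With Aph1a as the gene subtracted, the same pair was not called (Psenen minus Aph1a 1.43 log2 units, SE 0.253; limma adjusted p = 0.0655), so the count of 2 depends on which gene the spread is taken from. The call of Aph1a against Psenen was also lost without replicate 2 (limma adjusted p = 0.253) and without replicate 3 (0.0586), and on whole transcript lengths Psenen was 2.01 times Aph1a. With the spread estimated per gene, the pair was called whichever gene was subtracted (limma adjusted p = 0.0318 with Psenen subtracted and 0.0412 with Aph1a), and the count was 2.

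Neighbours not shown to differ even under a test of no difference were App and Aplp1 (limma adjusted p = 0.110), Psenen and Aplp2 (0.0517), and Bace1 and Ncstn (0.120). The ranges of App and Aplp1 and of Bace1 and Ncstn overlapped. Those of Psenen and Aplp2 did not, with Psenen lower in 3 of 3 libraries, and on whole transcript lengths Psenen was 0.567 times Aplp2. Aplp2 against App, Ncstn against Aph1a (limma adjusted p = 0.00213) and Psen2 against Bace1 (2.38e-04) differed under the test of no difference. These pairs were not shown to differ by more than 2-fold. With the other gene of each pair subtracted, limma adjusted p for no difference was 8.78e-05, 0.00256 and 1.19e-04 in that order. The spread was not estimated per gene for the test of no difference. For comparison, 95.4% of all genes were lower than Aplp1 by more than 2-fold and 86.6% were lower than Aplp2.

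The genes also differed in how much they varied between libraries. Ncstn was the steadiest, with a coefficient of variation of 1.54%, below its counting error of 5.30% to 6.64%. The SD of its log2 level was above that of 2.00% of the 200 genes nearest to it in mean. App had a coefficient of variation of 19.0%, a counting error of 1.32% to 1.73% and an SD above that of 95.0% of the 200 nearest genes. Aph1a (18.6%), Bace1 (17.9%), Psen2 (14.3%) and Psenen (13.8%) were intermediate, and Aplp1 (4.50%) and Aplp2 (8.38%) varied little. These coefficients of variation changed little with median-ratio scaling for Aplp1 (4.27%), Aplp2 (8.94%), App (18.6%) and Aph1a (19.0%), while that of Ncstn fell to 0.835%. They rose with every library rescaled to the same sum of FPKM, a sum that includes the small RNA Bc1 (124074, 179412 and 0 FPKM in libraries 1, 2 and 3). The coefficient of variation was then 11.6% for Ncstn, 15.4% for Aplp1, 21.4% for Aplp2, 22.1% for Psen2, 22.6% for Psenen, 23.6% for Bace1, 24.4% for App, 30.9% for Aph1a and 61.6% for Bace2. As deposited, it was 0.697% for Ncstn and 3.29% for Aplp2 without library 3, 2.08% for Aplp1, 7.33% for Psen2 and 10.2% for Aph1a without library 2, and 3.74% for Psenen without library 1.

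The lowest value fell in library 2 for 7 of the 9 genes, App, Aplp1, Aplp2, Bace1, Bace2, Psen2 and Aph1a. Over all genes tested, 33.2% had their lowest value there. The highest value fell in library 1 for 5 genes and in library 3 for 4. Over all genes, the highest value fell in libraries 1, 2 and 3 for 36.5%, 32.6% and 30.9%. In library 2 the median deviation of the 9 genes from their own means was -0.206 log2 units, against -0.001 over all genes. App deviated by 0.276, -0.274 and -0.001 log2 units in libraries 1, 2 and 3 and Bace1 by 0.247, -0.245 and -0.002. App was therefore 17.3, 16.9 and 17.1 times Bace1, a ratio that was steadier than either gene. With 3 libraries, no correlation was computed. Psenen alone among the members ordered libraries 1, 2 and 3 from low to high as the choroid plexus genes Ttr and Folr1 did (Kl was highest in library 2), and the part of choroid plexus RNA in its values was not tested.

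**Figure D4:**
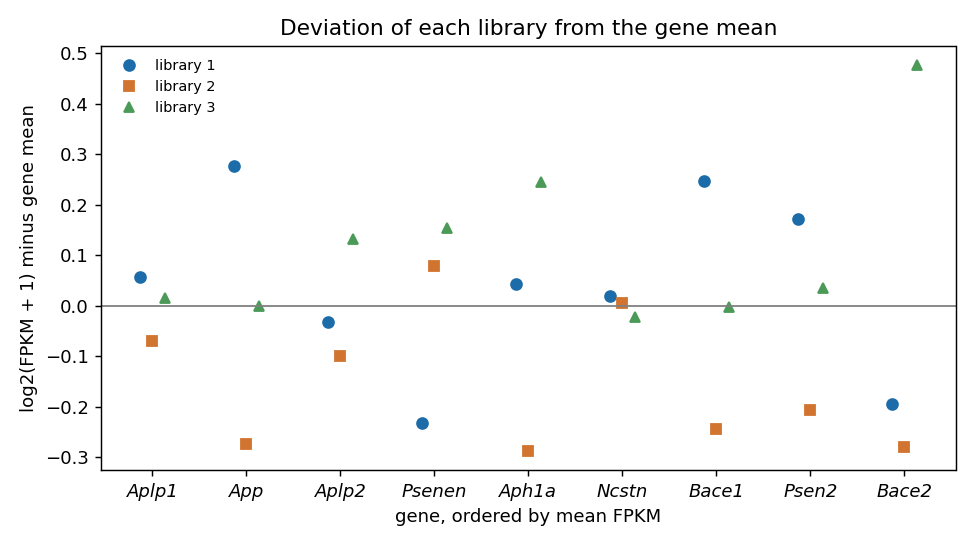
Deviation of each library from the gene's mean in log2(FPKM + 1), for the 9 genes ordered by mean FPKM, with 1 point per library. Library 2 lies lowest for 7 genes, App and Bace1 show nearly the same spacing of libraries, and Ncstn shows almost no spread.

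The genes nearest to App in level and library pattern, by the distance of log2(FPKM + 1) over 3 libraries, were Marcksl1 (distance 0.197), Stmn4 (0.251) and Nrep (0.263). Marcksl1 was at 373, 299 and 359 FPKM, and like App these genes were highest in library 1 and lowest in library 2. Choosing genes by distance over the same 3 libraries favours a shared order, so this order is not a separate finding. Unlike App, Stmn4 (366, 316 and 320 FPKM) and Nrep (364, 318 and 319 FPKM) were nearly level between libraries 2 and 3.

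Genes known to bind, traffic or degrade the amyloid precursor and its fragments were taken from lists by role. Of 9 adaptor genes, 7 were lower than App by more than 2-fold and 0 were higher, where 94.0% of all genes were lower and 0.667% higher. The median difference of the adaptor genes was -3.53 log2 units. The highest was Apbb1, whose product Fe65 binds the tail of App, at 191, 173 and 194 FPKM. Mapk8ip1, a kinase scaffold that links App to kinesin, was at 165 ± 14.6 FPKM and Apba2, a synaptic adaptor, at 99.0 ± 14.2 FPKM. Apbb1 and Mapk8ip1 were the 2 adaptor genes not called.

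Of 13 trafficking genes, 11 were lower than App and 0 were higher, with a median of -3.81, where 94.0% of all genes were lower and 0.667% higher. Rtn3, a reticulon that binds and restrains Bace1, was at 436, 387 and 403 FPKM, above App in 3 of 3 libraries by 0.29 log2 units, which was not called (limma adjusted p = 1). It stood at 21.1 ± 2.55 times Bace1. Rtn4, which encodes Nogo, was at 173 ± 14.0 FPKM and was not called either, and Vps35, a retromer subunit, was at 84.1 ± 4.32 FPKM.

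Of 6 modulators, 4 were lower than App and 0 were higher, with a median of -2.20, where 94.0% of all genes were lower and 0.667% higher. Itm2b, whose product binds App and hinders its cutting, was at 692, 694 and 723 FPKM, more than any of the 9 genes. It lay above App in 3 of 3 libraries, by 1.07 log2 units (SE 0.252), which was not shown to exceed 2-fold (limma adjusted p = 0.400). Its relative Itm2c was at 179 ± 4.80 FPKM and Tmed10, a cargo receptor that regulates gamma-secretase, at 72.8 ± 2.73 FPKM.

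Among amyloid-degrading proteases, 4 of the 6 tested were lower than App, 0 were higher and the lysosomal cathepsin genes Ctsd (167 ± 9.04 FPKM) and Ctsb (149 ± 3.76 FPKM) were not called, with a list median of -5.04. Ide, the insulin-degrading enzyme gene, was at 12.2 ± 1.01 FPKM. Mme, which encodes neprilysin, was at 0.66, 0.83 and 1.32 FPKM and under the mean of 1 FPKM needed for the test. Over all genes the median difference from App was -4.89 and 94.0% were lower.

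**Figure D5:**
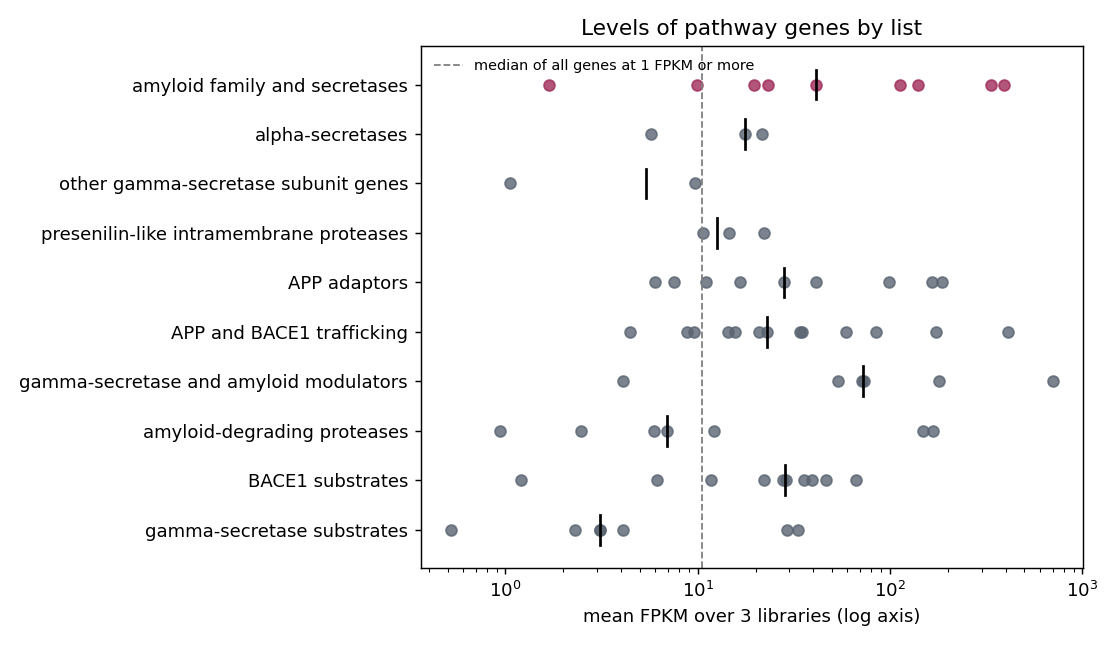
Mean FPKM over 3 libraries on a log axis, with 1 point per gene, for the 9 genes and the lists of related genes, a bar at each list's median and a dashed line at 10.5 FPKM, the median of all genes at 1 FPKM or more. The medians run between 3.11 FPKM for gamma-secretase substrates and 72.0 FPKM for modulators, with 41.2 FPKM for the 9 genes; Sppl2c, listed at 0, is not drawn but counts in its list's median.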

How the data were processed

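Hippocampal total RNA was read from both ends (150 bases each), per the labels' protocols. The authors deposited a single table of FPKM values, 1 column for each library, per the file headers. Bowtie2 and GRCm38 (mm10) are named in the submitters' processing notes. Which tool, annotation and strand setting served for counting is not given in the sources.

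FPKM were used as deposited. Differences of log2(FPKM + 1) from 1 gene were tested with limma 3.58.1 in R 4.3.3 (treat, null of at most 1 log2 unit, two-sided), adjusted over all genes with a mean of at least 1 FPKM, and called at adjusted p under 0.05. With 3 libraries the smallest p of an exact sign-flip test is 0.25, so none was run. Depth was fitted to low values of genes with 1 GENCODE M21 transcript of at least 800 bases, so that values of up to 4 fragments came out whole within 0.15 in 93.4%, 92.0% and 91.0% of cases; at least 25% of these had to be 1 fragment, since multiples of the depth score as well. Fragment numbers used the longest principal transcript and cover counting error only. A level of 3 fragments in 2 kb was 0.473, 0.412 and 0.289 FPKM. Promoter sequences are from RefSeq.

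The members, lists and tests were chosen with earlier results of these data known. Named were the 9 members, the 3 genes nearest to App and the 3 highest genes of each list; Adam17, Aph1c, overlapping genes and others that a count singles out were added after their values were seen. Hm13 was not analysed here. Some genes of the lists are not reported here.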

Additional observations from a re-analysis of the deposited data

How the results depend on the processing

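Of 413 values under other settings, 365 kept their direction and call or moved little, while 38 moved. Another 6 passed the threshold only under the alternative, 4 lost it and 0 reversed. Settings that alter only the null or the spread leave a log2 difference unchanged, so its direction could not reverse there. The calls of the substrate genes Nrcam and Cntn2 are outside these 413 values, and those lost are given under the other observations. With a null of no difference, the gamma-secretase subunits called against Ncstn numbered 3 of 3 (1 with the 2-fold null). Of all 13336 genes, 8743 were then called lower than Ncstn and 3286 higher, so that count does not set the subunits apart. The neighbouring pairs called numbered 5 (2 with the 2-fold null). Under the same null, 215 genes were higher than App, 7673 lower than Bace1 and 3342 higher than Bace1. Without a filter on low values, 11852 genes were lower than Ncstn and 10826 lower than Bace1, since more genes were tested. Leaving out each replicate gave 1 to 2 neighbouring pairs, -3.21 to -2.75 log2 units for Bace2 against Bace1, and 5 to 6 members lower than App. A pseudocount of 0.1 and a prior variance that depends on the mean changed no call named here. Median-ratio scaling changed none either, but it could hardly do so. Its factors were 1.01, 1.002 and 0.995 in libraries 1, 2 and 3, and a factor of a library nearly cancels in differences within it. The spread estimated per gene and the whole transcript length were chosen after seeing the data; estimating the spread per gene changed no call of a member against App, Ncstn or Bace1. Rescaling each library to a sum of 1000000 gave App 467 FPKM in place of 337. The deposited sums were 743038, 820068 and 637844 FPKM, of which the small RNA Bc1, looked up after seeing the data, took 124074, 179412 and 0. No paired analysis was possible because the samples form 1 group, and differences were already taken within a library. Bace2 and Psen2 had about 35 to 115 fragments in a library, the fewest of the 9 genes. Their counting error was 9.34% to 17.0% and 9.69% to 12.7%, and the part of depth in their spread was not tested.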

Other observations

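Genes whose products the secretases cut were also measured. Of 10 genes for Bace1 substrates, 1 was higher than Bace1 by more than 2-fold, 2 were lower and 7 were not called, where 13.8% of all genes were higher and 37.8% lower. Nrcam, a neuronal adhesion gene, was the higher one at 65.6, 60.1 and 74.9 FPKM (1.72 log2 units above Bace1, SE 0.242, and above it in 3 of 3 libraries; limma adjusted p = 0.00329). Sez6l2 was at 46.4 ± 6.23 FPKM (SD, n = 3) and L1cam, an axonal adhesion gene, at 39.1 ± 6.41 FPKM. The lower ones were Nrg1, the neuregulin gene that signals to myelinating cells, at 0.78, 1.47 and 1.39 FPKM, and Cntn2, a contactin gene, at 6.89, 3.64 and 7.93 FPKM. The call of Nrcam was lost without replicate 3 (1.64 log2 units, limma adjusted p = 0.0703). That of Cntn2 (-1.57 log2 units, limma adjusted p = 0.0185) was lost without replicate 2 (limma adjusted p = 0.126) and with the spread estimated per gene (0.0587).

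Of 7 genes for gamma-secretase substrates, 6 were tested against Ncstn, of which 4 were lower and 0 higher, where 45.7% of all genes were lower and 13.6% higher. Notch1 was at 2.24, 3.29 and 3.76 FPKM and Notch2 at 2.52, 2.00 and 2.37 FPKM, each lower than Ncstn in 3 of 3 libraries, with Erbb4 and the netrin receptor gene Dcc (4.07 ± 1.02 FPKM) as the others. The ephrin receptor gene Epha4 (33.1 ± 5.38 FPKM) and the N-cadherin gene Cdh2 (29.3 ± 4.34 FPKM) were not called, and Ngfr was under the mean needed for the test.

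Among the intramembrane proteases related to presenilin, Sppl3 was at 22.1 ± 2.52 FPKM, Sppl2b at 14.6 ± 1.40 FPKM and Sppl2a at 10.7 ± 1.04 FPKM. By the limma test, 0 of these 3 differed from Ncstn by more than 2-fold, where 45.7% of all genes were lower and 13.6% higher. With a null of no difference 2 of 3 did, where 8743 of all 13336 genes were lower and 3286 higher. Sppl2c was listed at 0 in all 3 libraries.

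App and Bace1 each varied between libraries by 17.9% to 19.0% (coefficient of variation), yet App was 17.1 ± 0.197 times Bace1. This spread of the ratio is smaller than the counting error of Bace1 alone (3.87% to 5.07%), and 3 libraries do not show whether the genes vary together. Ncstn likewise varied by less than its counting error.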
